A study of Mus musculus with 3 samples.

Results

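Genes of cholesterol and fatty acid synthesis and transport were read in mast cells of mouse skin. The set holds 36 genes named by their function: 18 enzymes of sterol synthesis, 6 genes of the SREBP control of that pathway, 7 genes of LXR signalling and sterol transport, and 5 genes of fatty acid synthesis. Of these, 35 had a row among the 20677 of the deposited table; Nr1h3, which encodes LXR alpha, was not analysed here.

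Mast cells carrying EYFP, a yellow fluorescent protein, were sorted from the skin of mice 1 week after birth, on a mixed C57BL/6xCD1xFVB background. All 3 groups carried the EYFP reporter and a Cre recombinase and received 4’OHT, the active form of tamoxifen, during embryonic life. The fetal HSC library, labelled for haematopoietic stem cells of the fetus, came from Runx1Cre/EYFP mice pulsed at embryonic day 9.5. The library labelled late erythro-myeloid progenitor (late EMP) came from Runx1Cre/EYFP mice pulsed at day 8.5, and the library labelled early EMP from Csf1rCre/EYFP mice pulsed at day 8.5. The label therefore marks cells whose ancestors used the driver gene at the time of the pulse, and the driver of the early EMP library differs from that of both other libraries. Each origin has 1 library, so differences have no measure of replicate spread and no p-value is printed. The sources used here give neither the number nor the sex of the animals, nor the depth; the steps between low values imply about 17.3 M fragments in the fetal HSC library, 15.4 M in late EMP and 15.7 M in early EMP, an imprecise estimate.

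Animal cells build cholesterol from acetyl-CoA through mevalonate, farnesyl diphosphate, squalene and lanosterol. When membrane sterol is low, SCAP carries the SREBP transcription factors out of the endoplasmic reticulum, they are cut free, and they switch on the genes of the pathway; INSIG proteins hold SCAP back when sterol is plentiful. When sterol is in excess, the LXR nuclear receptors switch on genes of cholesterol export. Cholesterol is also a main component of the plasma membrane of mast cells, from which IgE receptor signalling starts.

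Enzymes of sterol synthesis lay above the early EMP library as a group. Values are FPKM, fragments scaled to transcript length and library size, and differences are log2 of (FPKM + 1) between a pair of libraries, so that 1 is 2-fold. The median over the 18 enzymes was 0.64 for fetal HSC over early EMP and 0.81 for late EMP over early EMP. Over the 11529 kept genes with a symbol the medians were -0.03 and 0.06. In fetal HSC over early EMP 14 of the 18 enzymes lay above 0, and in late EMP over early EMP 16 of 18, against 47.3% and 54.4% of those genes. These 2 comparisons share the early EMP library. Between the fetal HSC and late EMP libraries the enzymes had a median of -0.18, beside -0.08 for the kept genes with a symbol.

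Counts past 2-fold were smaller. Relative to early EMP, the fetal HSC library had 5 of 18 enzymes higher by 2-fold or more and 1 lower; of 14412 kept features 8.18% were higher and 17.8% lower by that much. The late EMP library had 5 of 18 higher by 2-fold or more than early EMP and 0 lower, beside 8.64% and 10.8% of kept features. In fetal HSC over late EMP 1 enzyme was higher and none lower, beside 3.44% and 8.26% of kept features. Features with a symbol gave 8.06% higher and 8.59% lower for fetal HSC over early EMP, 7.53% and 4.23% for late EMP over early EMP, and, for the fetal HSC library set against late EMP, 2.71% and 5.35%. No member was 4-fold apart on this scale in any comparison. Over all 35 members, 6 were at least 2-fold higher and 2 lower in fetal HSC over early EMP, 8 and none in late EMP over early EMP, and 1 and none in fetal HSC over late EMP. Plain ratios of FPKM over early EMP, without the added 1, also passed 2-fold for Mvd (2.56), Stard4 (2.1) and Abcg1 (2.02) in fetal HSC. In late EMP they did so for Fdft1 (3.14) and Mvk (2.51) and, on the lower side, for Hsd17b7 (0.35) and Acaca (0.48).

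**Figure D1:**
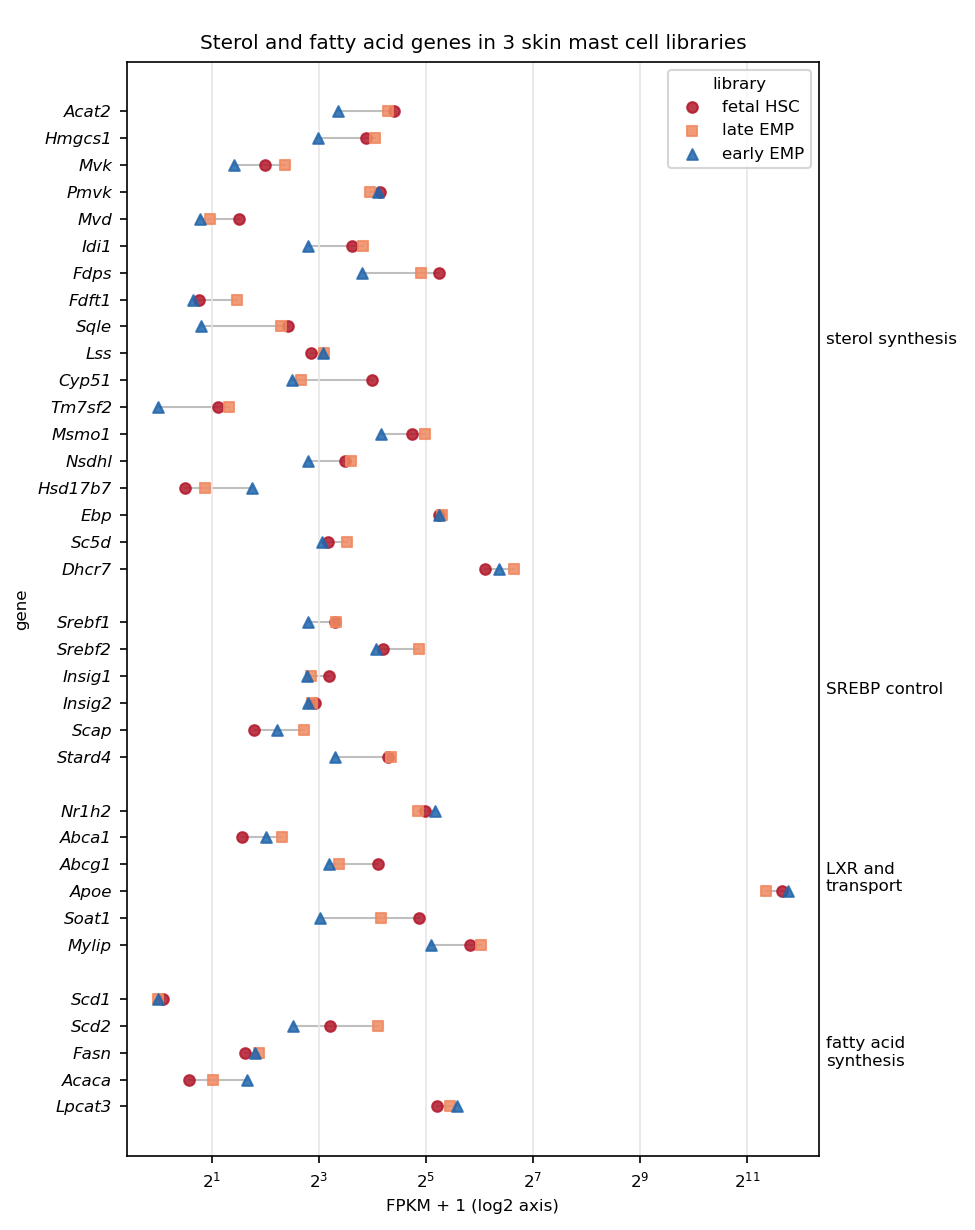
Level of each of the 35 genes (rows, by role) in the fetal HSC (circles), late EMP (squares) and early EMP (triangles) libraries, as FPKM + 1 on a log2 axis; each point is 1 library and grey lines span the 3. The early EMP triangle is at the left for 13 of the 18 enzymes of sterol synthesis, while Apoe stands far to the right of all other members in every library.

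The first part of the pathway, from acetyl-CoA to farnesyl diphosphate, summed to 103 FPKM in fetal HSC cells, 96.2 FPKM in late EMP cells and 53.8 FPKM in early EMP cells over its 7 measured enzymes. Acat2, which joins acetyl-CoA units in the cytosol, was at 20.1 FPKM in fetal HSC cells, 18.6 FPKM in late EMP cells and 9.30 FPKM in early EMP cells. Acat3, the neighbouring copy of Acat2, was at most 0.09 FPKM, and the sum of both was 20.1 FPKM in fetal HSC cells, 18.7 FPKM in late EMP cells and 9.39 FPKM in early EMP cells. Hmgcs1, the synthase that makes HMG-CoA (chromosome 13, 119690351 to 119708260, GRCm38), stood at 13.7 FPKM in fetal HSC cells, 15.5 FPKM in late EMP cells and 6.94 FPKM in early EMP cells. Its differences over early EMP were 0.89 for fetal HSC and 1.06 for late EMP, just under and just over the 2-fold level.

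Of the kinases that follow, Mvk, which phosphorylates mevalonate, was at 2.97 (fetal HSC), 4.17 (late EMP) and 1.66 FPKM (early EMP). Pmvk, which adds the next phosphate, was at 16.7 (fetal HSC), 14.6 (late EMP) and 16.2 FPKM (early EMP). These neighbouring steps thus differed: Mvk was lowest in the early EMP library, while the Pmvk levels lay within 1.14-fold of each other between the fetal HSC and late EMP libraries, with the early EMP library between them. Mvd, the decarboxylase that makes isopentenyl diphosphate, was low, at 1.84 (fetal HSC), 0.96 (late EMP) and 0.72 FPKM (early EMP). Idi1, which isomerises that product, was at 11.2 FPKM in fetal HSC cells, 13.2 FPKM in late EMP cells and 5.96 FPKM in early EMP cells. Fdps, which makes farnesyl diphosphate (chromosome 3, 89093588 to 89101967, GRCm38), stood at 36.8 FPKM in fetal HSC cells, 29.1 FPKM in late EMP cells and 12.9 FPKM in early EMP cells. Its differences over early EMP, 1.44 for fetal HSC and 1.11 for late EMP, were the largest among the 7 enzymes of this part on the scale with 1 FPKM added; the plain ratio for late EMP was 2.25, below the 2.51 of Mvk.

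From squalene onward the enzymes were less alike. Their sum was 177 FPKM in the fetal HSC library, 211 FPKM in the late EMP library and 164 FPKM in the early EMP library over 11 genes, and their medians over early EMP were 0.12 for fetal HSC and 0.47 for late EMP, beside 0.81 and 0.96 for the first part of the pathway. Fdft1, the squalene synthase that commits farnesyl diphosphate to sterols, was at 0.69 (fetal HSC), 1.76 (late EMP) and 0.56 FPKM (early EMP). Sqle, the squalene epoxidase (chromosome 15, 59315092 to 59331193, GRCm38), stood at 4.35 FPKM in fetal HSC cells, 3.92 FPKM in late EMP cells and 0.75 FPKM in early EMP cells. It was low in all libraries yet on this scale had the largest difference of any enzyme in both comparisons with early EMP, 1.61 for fetal HSC and 1.49 for late EMP. The plain ratios of its FPKM values, without the added 1, were 5.80 for fetal HSC and 5.23 for late EMP, since adding 1 shrinks the change of so low a gene. At the depth implied by the table its values stand for about 196, 157 and 31 fragments in the fetal HSC, late EMP and early EMP libraries. Lss, which closes squalene epoxide into lanosterol, was at 6.20 (fetal HSC), 7.53 (late EMP) and 7.40 FPKM (early EMP), with the libraries within 1.21-fold of each other.

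Cyp51, the lanosterol demethylase (chromosome 5, 4080674 to 4104697, GRCm38), stood at 14.8 FPKM in fetal HSC cells, 5.32 FPKM in late EMP cells and 4.64 FPKM in early EMP cells. The fetal HSC library was high and the late and early EMP libraries were close to each other: the difference was 1.49 over early EMP and 1.33 over late EMP, and 0.16 between late and early EMP. With 1 FPKM added, Cyp51 was the 1 member of 35 at least 2-fold apart between the fetal HSC and late EMP libraries. That is 2.86% of members, beside 11.7% of kept features and 8.07% of those with a symbol, apart in either direction. Plain ratios of fetal HSC over late EMP were also past 2-fold, and lower, for Fdft1 (0.39), Scap (0.44), Acaca (0.47), Hsd17b7 (0.49) and Abca1 (0.49). Tm7sf2, a sterol reductase that acts on the product of Cyp51, was at 1.18 FPKM in the fetal HSC library and 1.49 FPKM in the late EMP library, and was listed at 0 in the early EMP library. No fold is given against that 0, although it counts among the 5 higher enzymes of both comparisons; without it the counts were 4 of 17 and the medians 0.59 for fetal HSC and 0.80 for late EMP.

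The enzymes that strip methyl groups from the sterol ring did not share a direction. Msmo1, the methylsterol oxygenase, was at 25.9 FPKM in fetal HSC cells, 30.7 FPKM in late EMP cells and 16.8 FPKM in early EMP cells, and Nsdhl, the dehydrogenase that acts with it, at 10.2 (fetal HSC), 11.1 (late EMP) and 5.96 FPKM (early EMP). Both were lowest in the early EMP library without reaching 2-fold. Hsd17b7, the ketosteroid reductase of the same complex (chromosome 1, 169949535 to 169969242, GRCm38), stood at 0.41 FPKM in fetal HSC cells, 0.83 FPKM in late EMP cells and 2.35 FPKM in early EMP cells. It was the only enzyme highest in the early EMP library, with differences of -1.25 for fetal HSC and -0.87 for late EMP. Its plain ratios over early EMP, without the added 1, were 0.17 for fetal HSC and 0.35 for late EMP. These values stand for about 32, 57 and 165 fragments in the fetal HSC, late EMP and early EMP libraries.

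The last steps lay within 2-fold in every comparison. Dhcr7, the reductase that yields cholesterol, was the highest enzyme in each library, at 68.0 FPKM in fetal HSC cells, 99.6 FPKM in late EMP cells and 81.0 FPKM in early EMP cells. Ebp, the sterol isomerase, was at 36.7 FPKM in fetal HSC cells, 38.4 FPKM in late EMP cells and 36.8 FPKM in early EMP cells. Sc5d, a sterol desaturase, was at 8.02 (fetal HSC), 10.5 (late EMP) and 7.32 FPKM (early EMP). The difference from early EMP was between -0.25 and 0.12 for fetal HSC and between 0.06 and 0.47 for late EMP over these 3 enzymes. Ebp and Nsdhl are the X-linked members, and sex-linked RNA differed between the libraries: Xist, made from the inactive X chromosome, was at 52.0 (fetal HSC), 0.53 (late EMP) and 25.6 FPKM (early EMP), and the Y-linked Ddx3y at 0.32 (fetal HSC), 38.5 (late EMP) and 20.7 FPKM (early EMP). Whether the sex of the animals bears on any difference here cannot be told apart from origin.

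**Figure D2:**
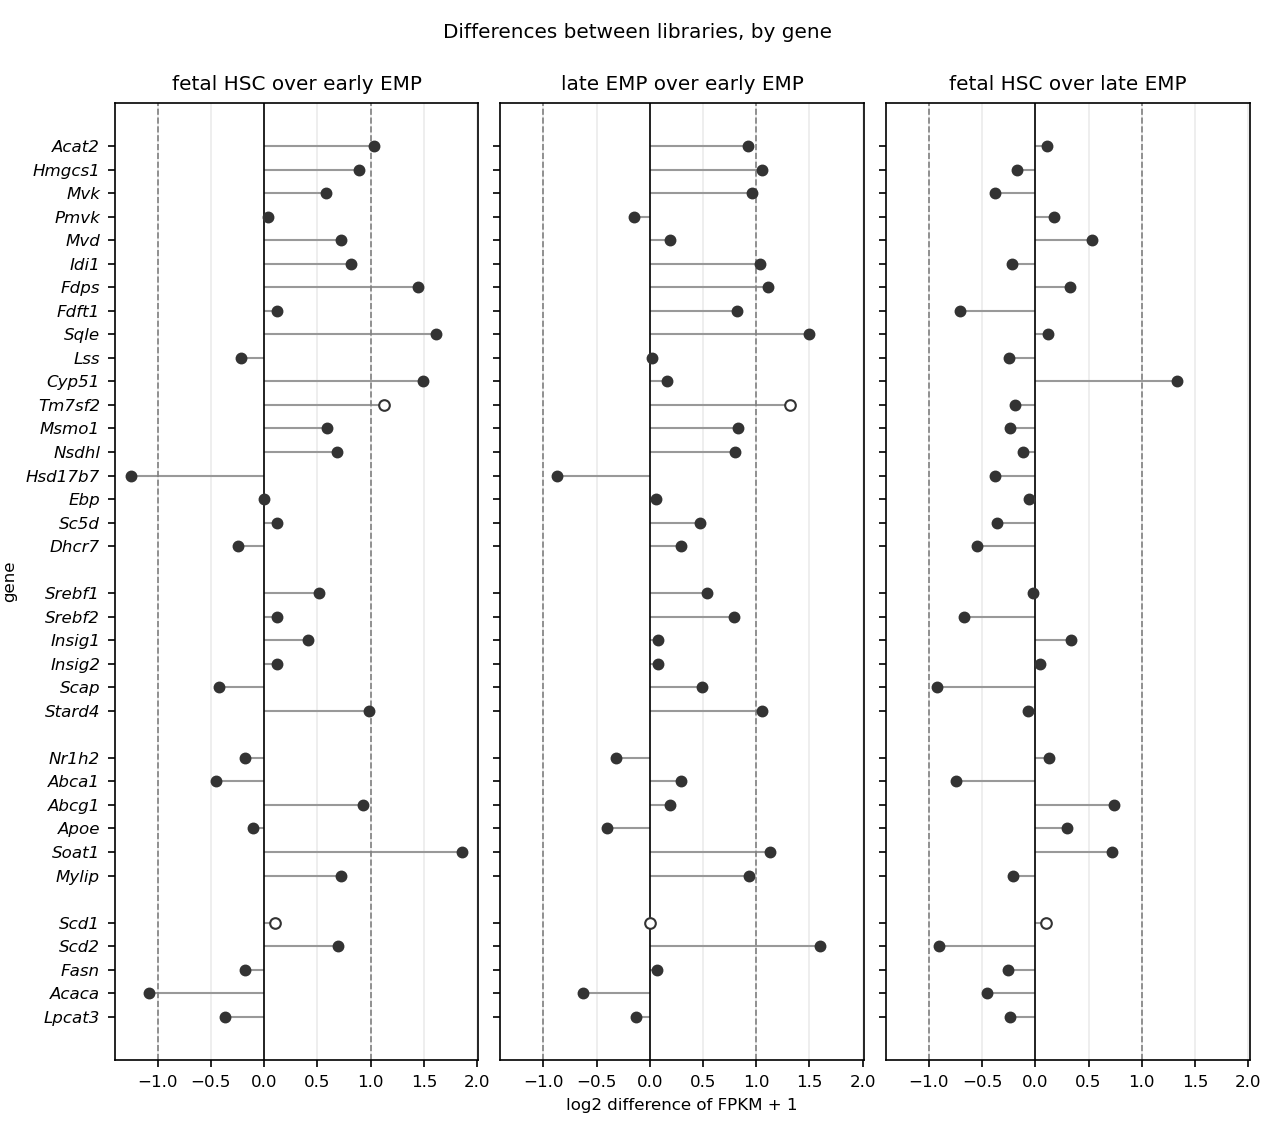
Difference in log2 (FPKM + 1) for each of the 35 genes (rows) in 3 panels, which show from left to right fetal HSC over early EMP, late EMP over early EMP, then fetal HSC over late EMP; dashed lines mark 2-fold and open circles mark genes listed at 0 in a library of the pair. Most enzymes in the upper block lie right of 0 in the first and second panels, and Cyp51 alone passes a dashed line in the third.

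The start of these genes was read in RefSeq promoter windows of GRCm38.p6, 250 bases before to 50 bases after each annotated start. A window was found for 15 of the 18 enzymes. Fdft1, Sqle and Fdps had none, so the shares below leave them out. Of these, Sqle and Fdps were past 2-fold in both comparisons with early EMP. Exact matches on both strands were sought for TCACNCCAC, a form of the sterol regulatory element bound by SREBP, CCAAT, the box bound by NF-Y, and GGGCGG, the GC box bound by Sp1; NF-Y and Sp1 are known to work beside SREBP. The 108 matches in all members' windows had no overlap between different motifs. CCAAT was in a window of 14 of the 15 enzymes (93.3%), against 43.7% of 9296 kept genes and 41.1% of all 27025 genes with a window. The exception was Acat2. GGGCGG was in 14 of 15 (93.3%), against 67.2% of kept genes and 38.2% of all, with Pmvk the exception. TCACNCCAC was in 1 of 15, Hmgcs1, against 1.28% of kept genes and 1.44% of all. Other forms of the sterol regulatory element were not sought, so a window without a match may still hold such an element. These matches describe letters in the windows only; the enzymes within 2-fold, such as Ebp, Lss and Dhcr7, hold CCAAT and GGGCGG as well.

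Windows of 5 members are printed because they carry the contrasts above: Hmgcs1 and Idi1 of the early steps, Cyp51 with its excess in the fetal HSC library, Ebp with nearly equal levels, and Soat1, the sterol-storing enzyme described below. Each runs 5′ to 3′ on the gene's strand, and capitals mark TCACNCCAC and CCAAT, the second read as ATTGG where it lies on the opposite strand. The windows are chr13:119690101-119690400 (+ strand) for Hmgcs1, chr13:8885356-8885655 (+ strand) for Idi1, chr5:4104648-4104947 (- strand) for Cyp51, chrX:8193463-8193762 (- strand) for Ebp and chr1:156474279-156474578 (- strand) for Soat1. The Hmgcs1 window holds 4 CCAAT boxes and the regulatory element, whose first base lies 137 bases before the start. The windows of Idi1 and Ebp hold 2 CCAAT boxes each, and those of Cyp51 and Soat1 hold 1, at 29 and 30 bases before the start.
Hmgcs1: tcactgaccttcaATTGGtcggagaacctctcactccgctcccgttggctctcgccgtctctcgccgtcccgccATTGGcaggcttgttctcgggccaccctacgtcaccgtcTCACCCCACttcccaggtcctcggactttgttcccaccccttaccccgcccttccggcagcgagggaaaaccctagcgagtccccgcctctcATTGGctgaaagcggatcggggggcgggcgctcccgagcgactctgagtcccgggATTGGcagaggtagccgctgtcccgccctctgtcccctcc
Idi1: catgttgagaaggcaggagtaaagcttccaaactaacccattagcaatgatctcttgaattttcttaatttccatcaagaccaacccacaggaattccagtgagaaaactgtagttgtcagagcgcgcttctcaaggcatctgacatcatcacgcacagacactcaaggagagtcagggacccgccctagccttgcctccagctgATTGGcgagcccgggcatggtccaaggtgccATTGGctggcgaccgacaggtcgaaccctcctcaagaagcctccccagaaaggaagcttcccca
Cyp51: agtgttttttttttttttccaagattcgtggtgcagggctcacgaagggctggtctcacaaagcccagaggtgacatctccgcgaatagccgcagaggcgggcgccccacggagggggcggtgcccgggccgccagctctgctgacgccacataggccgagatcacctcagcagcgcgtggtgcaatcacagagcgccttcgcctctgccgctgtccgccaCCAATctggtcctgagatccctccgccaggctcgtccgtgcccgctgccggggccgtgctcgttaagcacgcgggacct
Ebp: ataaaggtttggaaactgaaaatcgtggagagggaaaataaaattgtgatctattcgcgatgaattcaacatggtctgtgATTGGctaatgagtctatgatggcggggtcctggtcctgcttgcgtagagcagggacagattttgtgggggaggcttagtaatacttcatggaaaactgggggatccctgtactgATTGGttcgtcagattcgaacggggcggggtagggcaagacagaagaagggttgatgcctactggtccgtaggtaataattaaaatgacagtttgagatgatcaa
Soat1: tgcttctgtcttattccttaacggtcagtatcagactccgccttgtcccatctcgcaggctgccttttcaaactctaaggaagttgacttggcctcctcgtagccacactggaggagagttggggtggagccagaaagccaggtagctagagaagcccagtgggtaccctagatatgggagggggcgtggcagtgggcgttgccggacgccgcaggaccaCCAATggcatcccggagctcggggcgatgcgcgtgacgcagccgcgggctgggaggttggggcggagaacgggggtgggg

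The 6 genes of the SREBP control group included Stard4, a sterol carrier. Medians of the 6 were 0.27 for fetal HSC over early EMP, 0.52 for late EMP over early EMP and -0.04 between fetal HSC and late EMP. With 1 FPKM added, none of them was at least 2-fold apart in fetal HSC over early EMP, where 25.98% of kept features and 16.6% of those with a symbol were. In late EMP over early EMP 1 was, Stard4, beside 19.4% of kept features and 11.8% of those with a symbol. Srebf2, the SREBP that mainly drives sterol synthesis, was at 17.3 FPKM in fetal HSC cells, 28.1 FPKM in late EMP cells and 15.8 FPKM in early EMP cells. Srebf1, whose products mainly drive fatty acid synthesis, was at 8.89 (fetal HSC), 9.05 (late EMP) and 5.92 FPKM (early EMP). Thus the late EMP library had the highest Srebf2 level of the 3, and the fetal HSC and early EMP libraries lay within 1.10-fold of each other.

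Scap, the escort of SREBP, was at 2.47 (fetal HSC), 5.57 (late EMP) and 3.67 FPKM (early EMP), highest in the late EMP library and lowest in the fetal HSC library. Insig1, itself a target of SREBP that retains SCAP, was at 8.15 (fetal HSC), 6.25 (late EMP) and 5.88 FPKM (early EMP), and its relative Insig2 at 6.59 (fetal HSC), 6.34 (late EMP) and 5.97 FPKM (early EMP). Insig2 was nearly level across the libraries, and Insig1 was highest in the fetal HSC library. Stard4, a carrier that moves sterol between membranes and a known SREBP2 target in mouse, was at 18.5 FPKM in fetal HSC cells, 19.4 FPKM in late EMP cells and 8.84 FPKM in early EMP cells. With 1 FPKM added, its differences over early EMP were 0.99 for fetal HSC and 1.05 for late EMP, on either side of 2-fold. They resembled those of Hmgcs1 and Idi1 in size. The plain ratios of Stard4 over early EMP, 2.1 for fetal HSC and 2.2 for late EMP, were both past 2-fold.

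Genes of LXR signalling and transport had no common direction, with medians of 0.31 for fetal HSC over early EMP, 0.24 for late EMP over early EMP and 0.22 between fetal HSC and late EMP over 6 genes. Nr1h2, which encodes LXR beta, was at 30.7 FPKM in fetal HSC cells, 27.9 FPKM in late EMP cells and 34.9 FPKM in early EMP cells. Abca1 and Abcg1 export cholesterol to lipoproteins and are textbook LXR targets. Abca1 was at 1.95 (fetal HSC), 3.94 (late EMP) and 3.03 FPKM (early EMP), and Abcg1 at 16.3 (fetal HSC), 9.39 (late EMP) and 8.08 FPKM (early EMP). The place of the fetal HSC library differed between them: it was lowest for Abca1 and highest for Abcg1, with differences of -0.74 and 0.74 over late EMP.

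Soat1, which esterifies cholesterol for storage in droplets (chromosome 1, 156428108 to 156474328, GRCm38), stood at 28.4 FPKM in fetal HSC cells, 16.8 FPKM in late EMP cells and 7.12 FPKM in early EMP cells. Its difference of 1.86 in fetal HSC over early EMP was the largest of all 35 members on the scale with 1 FPKM added, although its plain ratio of 3.99 was below the 5.80 of Sqle, and that for late EMP was 1.13; between fetal HSC and late EMP it was 0.72. Mylip, a ubiquitin ligase that marks lipoprotein receptors for degradation, was at 55.6 (fetal HSC), 64.5 (late EMP) and 33.3 FPKM (early EMP), lowest in the early EMP library and short of 2-fold.

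Apoe, the apolipoprotein that carries lipid out of cells (chromosome 7, 19696244 to 19701310, GRCm38), was the most abundant member by far. It was at 3214 FPKM in fetal HSC cells, 2608 FPKM in late EMP cells and 3449 FPKM in early EMP cells. The libraries lay within 1.32-fold of each other and the difference was -0.10 for fetal HSC and -0.40 for late EMP over early EMP.

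The 12 macrophage markers, read because macrophages also make Apoe, summed to 69.6 FPKM in the fetal HSC library, 98.7 FPKM in the late EMP library and 124 FPKM in the early EMP library. Of these, Lyz2 was the highest in each library, Fcgr1 was listed at 0 in the fetal HSC library and Trem2 in the early EMP library. Their sum was lowest in the fetal HSC library, where Apoe was close to its level in the early EMP library. In bulk RNA, fewer cells of a type and less RNA per cell cannot be told apart. What part macrophage RNA had in the Apoe level was not tested.

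Fatty acid synthesis showed no shared direction, with medians of -0.18 for fetal HSC over early EMP and 0.00 for late EMP over early EMP over 5 genes. Acaca, the acetyl-CoA carboxylase that makes malonyl-CoA (chromosome 11, 84129635 to 84401651, GRCm38), stood at 0.49 FPKM in fetal HSC cells, 1.04 FPKM in late EMP cells and 2.16 FPKM in early EMP cells. Fasn, the synthase that builds palmitate, was at 2.09 (fetal HSC), 2.68 (late EMP) and 2.50 FPKM (early EMP). Acaca was thus highest in the early EMP library, with differences over it of -1.08 for fetal HSC and -0.63 for late EMP. The plain ratios of Acaca over early EMP were 0.23 for fetal HSC and 0.48 for late EMP. Fasn was nearly level. Scd2, a desaturase that makes oleate (chromosome 19, 44293676 to 44306864, GRCm38), stood at 8.21 FPKM in fetal HSC cells, 16.2 FPKM in late EMP cells and 4.69 FPKM in early EMP cells. Its difference of 1.60 in late EMP over early EMP was the largest of the 35 members in that comparison with 1 FPKM added, although its plain ratio of 3.45 was below the 5.23 of Sqle, and it was 0.69 in fetal HSC over early EMP. Scd1, the isoform that dominates in liver and fat, was listed at 0 in the late and early EMP libraries and at 0.07 FPKM in the fetal HSC library, and was the 1 member under the level of 1 FPKM in every library. The group median of 0.00 in late EMP over early EMP is the value of Scd1. Without Scd1 the group medians were -0.27 for fetal HSC over early EMP and -0.03 for late EMP over early EMP. Lpcat3, which puts polyunsaturated chains into phospholipids and is a target of LXR, was at 36.0 (fetal HSC), 42.7 (late EMP) and 46.8 FPKM (early EMP), the highest gene of this group in each library.

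**Figure D3:**
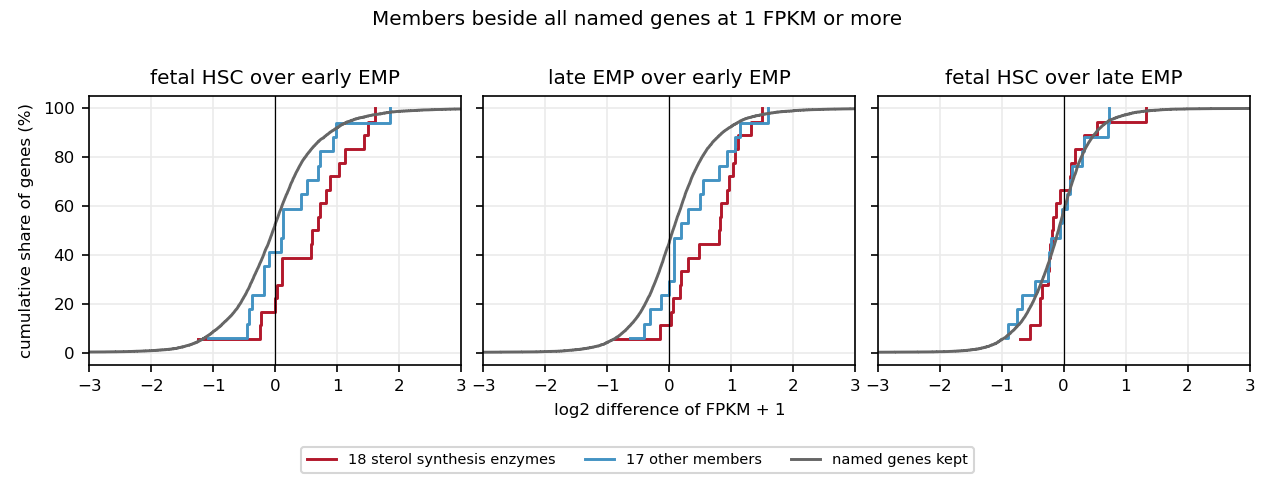
Cumulative share of genes (vertical axis, %) against the log2 difference of FPKM + 1 in the 3 comparisons, for the 18 enzymes of sterol synthesis (red), the 17 other members (blue) and the 11529 kept genes with a symbol (grey). The red line lies right of the grey line over most of its length in the first and second panels, with medians of 0.64 and 0.81 against -0.03 and 0.06, and close to it in the third.

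Across all 35 members the early EMP library was the lowest of the 3 for 22 genes (62.9%) and the highest for 5 (14.3%). Among the 11529 kept genes with a symbol it was the lowest for 37.4% and the highest for 35.5%. The late EMP library was the highest for 19 members (54.3%), against 35.7% of kept genes with a symbol, and the fetal HSC library for 11 (31.4%), against 28.6%. Members highest in the early EMP library were Hsd17b7, Nr1h2, Apoe, Acaca and Lpcat3.

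A wider list of 66 lipid genes, of which 65 had a row, had medians nearer to 0 than the sterol enzymes. They were 0.00 for fetal HSC over early EMP, 0.10 for late EMP over early EMP and -0.11 between fetal HSC and late EMP. In fetal HSC over early EMP 4 were at least 2-fold higher and 4 lower, in late EMP over early EMP 4 higher and 1 lower, and in fetal HSC over late EMP none higher and 4 lower. That is 6.15% higher and 6.15% lower for fetal HSC over early EMP, beside 8.18% and 17.8% of kept features. For late EMP over early EMP it is 6.15% and 1.54%, beside 8.64% and 10.8%. Between fetal HSC and late EMP it is 6.15% lower, beside 8.26%. Kept features with a symbol gave 8.06% higher and 8.59% lower, then 7.53% and 4.23%, then 5.35% lower, in the same order of comparisons. Unlike the kept features, the 65 lipid genes were not filtered by level. Some, such as Acacb and Ch25h, stayed under 1 FPKM in every library and cannot reach 2-fold with 1 FPKM added. Fabp5, a carrier of fatty acids, was at 3.54 FPKM in fetal HSC cells, 6.80 FPKM in late EMP cells and 0.24 FPKM in early EMP cells. Elovl6, which lengthens palmitate, was at 7.09 (fetal HSC), 3.96 (late EMP) and 1.95 FPKM (early EMP), and Dgat1, which completes triglyceride, at 24.8 (fetal HSC), 18.1 (late EMP) and 11.2 FPKM (early EMP). These 3 were lowest in the early EMP library, as were Lpin1, a phosphatidate phosphatase, at 15.4 (fetal HSC), 19.0 (late EMP) and 7.76 FPKM (early EMP) and Elovl7 at 17.6 (fetal HSC), 27.6 (late EMP) and 12.98 FPKM (early EMP). Scarb1, a receptor for high-density lipoprotein, was at 4.87 FPKM in fetal HSC cells, 11.0 FPKM in late EMP cells and 14.1 FPKM in early EMP cells, and Pnpla2, which starts triglyceride breakdown, at 5.92 (fetal HSC), 13.8 (late EMP) and 14.7 FPKM (early EMP). Scarb1 and Pnpla2 were the 2 genes of this list, among those at 5 FPKM or more in a library, 2-fold or more below both others in the fetal HSC library.

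The sum of the mitosis genes, like that of the sterol enzymes, was lowest in the early EMP library. The 15 mitosis genes summed to 255 FPKM in the fetal HSC library, 243 FPKM in the late EMP library and 45.5 FPKM in the early EMP library; 14 of 15 were at least 2-fold higher in fetal HSC over early EMP and all 15 in late EMP over early EMP, beside the 8.18% and 8.64% of kept features given above. Birc5, a survivin of the mitotic spindle, was at 42.7 (fetal HSC), 33.6 (late EMP) and 4.11 FPKM (early EMP). The 18 sterol enzymes summed to 280 FPKM, 307 FPKM and 217 FPKM in the fetal HSC, late EMP and early EMP libraries. The part of cell division in the sterol enzymes' difference was not tested.

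Markers of other skin cells were low beside the sum of 10 mast cell markers, which lay between 187575 and 219022 FPKM with none at 0. Melanocyte markers summed to 64.3 FPKM in fetal HSC cells, 39.5 FPKM in late EMP cells and 31.8 FPKM in early EMP cells over 6 genes. Of the 6, 5 were lowest in the early EMP library, Mlana being listed at 0 there, while Mitf, which mast cells also express, was highest there. Mitf alone gave 23.55, 25.75 and 30.16 FPKM of these sums, and so most of the late and early EMP sums. The median difference of the 6 over early EMP was 2.42 for fetal HSC and 1.35 for late EMP. Sebocyte and keratinocyte markers summed to 16.7, 12.01 and 18.3 FPKM over 9 genes in the fetal HSC, late EMP and early EMP libraries. Krt79 alone gave 5.96, 7.02 and 16.45 FPKM of these sums, and so most of the early EMP sum. Of the 9 genes, 4 were higher and 4 lower in fetal HSC over early EMP. In late EMP over early EMP 6 were higher and 2 lower. Fibroblast markers summed to 14.8, 18.7 and 9.36 FPKM over 8 genes in the same order of libraries. Pdgfrb alone gave 10.5, 11.17 and 7.78 FPKM of these sums. Of the 8 fibroblast genes, 7 were higher and 1 lower in fetal HSC over early EMP, and all 8 were higher in late EMP over early EMP. Schwann cell markers summed to 1.54, 4.25 and 2.77 FPKM over 4 genes, again in that order. Adipocyte markers, read because fat cells make fatty acids, summed to 0.81, 1.69 and 1.55 FPKM over 5, with Adipoq listed at 0 in the fetal HSC and early EMP libraries. The part of these cells in the members' levels was not tested.

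**Figure D4:**
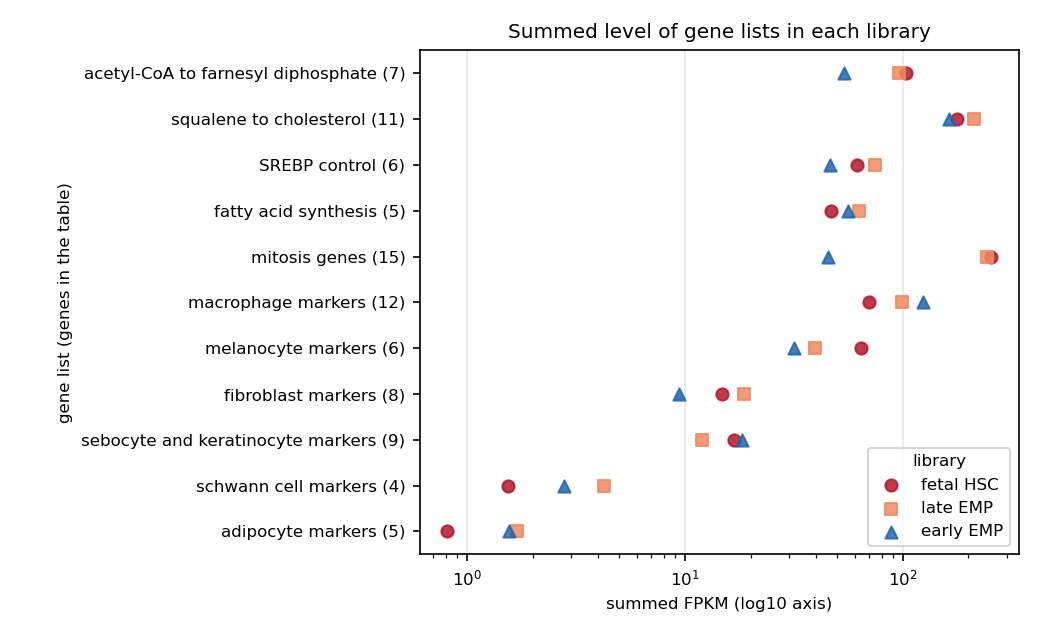
Summed FPKM (log10 axis) of 11 gene lists in the fetal HSC (circles), late EMP (squares) and early EMP (triangles) libraries, with the number of genes in the table in brackets. The first part of sterol synthesis sits at 103, 96.2 and 53.8 FPKM and the mitosis genes at 255, 243 and 45.5 FPKM in the same order of libraries, and both have the early EMP library lowest.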

How the data were processed

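Per the labels' protocols, TRIzol was used to extract RNA from the sorted mast cells, and the Beijing Genomics Institute built the libraries and ran them on a HiSeq instrument. The authors deposited 1 table of FPKM values per gene for the 3 libraries, with 2 decimals, per the file headers. The submitters' processing notes name RSEM and Bowtie2 without versions, and the genome builds GRCm38 and mm10. The column headed as a control was matched to the early EMP library through its description. FPKM is a share of the library, so very abundant granule protease genes weigh on all other values, and a listed 0 may be an estimate that failed. Where genes overlap or have near-identical copies, their values are uncertain.

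Differences are log2 ratios of FPKM + 1, a scale on which low genes appear less changed than they are. Background shares use the 14412 features that reached 1 FPKM in any library. All 35 members in the table were counted, including Scd1, which did not reach that level. With 1 library per origin no test was made. The members and lists were chosen with earlier results of these data known. All members are named; of the wider lipid list, up to 6 genes per comparison at least 2-fold apart and at 5 FPKM or more are named. The wider lists of cell markers and mitosis genes serve as descriptions.

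Depth was estimated from genes with 1 RefSeq transcript, using GENCODE lengths less 150 bases: 66.0%, 75.7% and 71.6% of low values in the fetal HSC, late EMP and early EMP libraries came to whole fragments within a tolerance of 0.15. By chance 30% would for a step not fitted to the data, and more for the fitted step used here. Fragment numbers given beside genes rest on this estimate and on annotated lengths. Coordinates are from RefSeq on GRCm38.p6, where all 35 gene identifiers matched. Promoter windows were found for 29 of the 36 listed genes by symbol; a gene with several windows holds a motif if any window does. Scripts were tested on simulated data. The alternatives tried were a pseudocount of 0.1 or 5 FPKM, dropping the filter or raising it to 5 FPKM, equal totals, median-of-ratios factors, equal totals without the 50 most abundant genes, rows with a symbol only and, added after the data were seen, genes above 0 in all 3 libraries. Python 3.11.15 was used with pandas 2.3.3, numpy 2.4.6 and matplotlib 3.10.9.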

Additional observations from a re-analysis of the deposited data

How the results depend on the processing

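No paired analysis was possible because each origin has 1 library. The medians of the sterol enzymes and of all members kept their sign in all comparisons under every alternative run. For the sterol enzymes they ranged from 0.28 to 0.78 in fetal HSC over early EMP, from 0.36 to 0.88 in late EMP over early EMP and from -0.23 to -0.07 in fetal HSC over late EMP. For all members the ranges were 0.26 to 0.58, 0.28 to 0.52 and -0.23 to -0.05, in the same order. Of the other gene groups, the median of the SREBP control genes in fetal HSC over late EMP was 0.08 with median-of-ratios factors, and that of fatty acid synthesis in fetal HSC over early EMP was 0.16 with the filter at 5 FPKM, both against a sign below 0 in the report; medians given as 0.00 also left 0, to 0.73 for fatty acid synthesis in late EMP over early EMP with that filter. With the same filter the median of LXR signalling and transport was 0.72 in fetal HSC over early EMP, against 0.31. Which member differed most also depended on the pseudocount: with 0.1 FPKM, Tm7sf2, listed at 0 in early EMP, and then Sqle led both comparisons with early EMP.

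Counts past 2-fold depended on the pseudocount, since many members are low. With 5 FPKM, 2 sterol enzymes and 3 members were higher and 0 lower in fetal HSC over early EMP (median of the enzymes 0.282), 0 enzymes and 1 member were higher in late EMP over early EMP (0.356), and 0 of both in fetal HSC over late EMP. With 0.1 FPKM, 1 enzyme and 1 member were lower in late EMP over early EMP, and 1 enzyme and 2 members in fetal HSC over late EMP. The filter at 5 FPKM left 3 enzymes higher in each comparison with early EMP, and 0 enzymes and 0 members lower in fetal HSC over early EMP.

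The share of all features at least 2-fold apart, 25.98% in fetal HSC over early EMP, was 3.19% with a pseudocount of 5 FPKM, 13.6% with the filter at 5 FPKM, 16.6% for rows with a symbol and 17.2% for genes above 0 in all libraries. In late EMP over early EMP it was 19.4%, against 31.4% with a pseudocount of 0.1 FPKM, 2.28% with 5 FPKM, 9.47% with the filter, 11.8% for rows with a symbol and 11.6% for genes above 0. In fetal HSC over late EMP it was 11.7%, against 25.1% with 0.1 FPKM, 1.35% with 5 FPKM and 6.48% with the filter. The rescalings moved no median of the members by 0.2 or more. Of 909 values of single members under an alternative, 60 moved by 0.2 or more, all with another pseudocount.

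With 1 library per origin, variation between animals cannot be set against any difference, sex and origin cannot be told apart, and in the comparisons with early EMP neither can driver line and origin.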
